A study of Mus musculus with 6 samples.

Results

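The transcriptome of wild-type brown adipocytes was described by signal, from the 2 wild-type arrays among the 6 of the study. The cells came from brown fat of a mouse of mixed background, had been immortalised by large T antigen under SV40 control, and were at passage 4. Brown preadipocytes had been differentiated into adipocytes, and RNA was taken on day 7. The title of the wild-type cells names no siRNA and no agent. The other 4 arrays, of cells lacking PGC-1alpha with a control siRNA or with an siRNA against PGC-1beta, were not compared here. Both wild-type arrays are called biological replicates in the series design, but nothing states that they came from separate cell lines, and the immortalised line limits the cells as a model of brown fat in the animal.

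No group difference entered the ranking. Each gene took its probe set with the highest mean intensity over the 2 wild-type arrays. The 17925 genes with a value on both arrays were ranked by that mean. The gene lists and the genes named were chosen with earlier results of these data known. An intensity is the brightness of a probe set in the units of the deposited table. It depends on the probe's sequence as well as on the amount of RNA, so the order ranks signals and not numbers of transcripts. A gene's place is therefore given against 2 limits and as a percentile, the percentage of ranked genes with a lower signal. With 2 arrays of 1 group there was no group comparison and no test.

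Brown adipocytes store triglyceride in many small droplets and burn fatty acids in densely packed mitochondria. Uncoupling protein 1 (Ucp1) lets protons back across the inner mitochondrial membrane without making ATP, so that the energy of respiration is released as heat. The identity of the cells rests on the adipogenic factors Pparg and the C/EBP proteins, joined by regulators such as Prdm16, Ebf2 and the PGC-1 coactivators, and noradrenaline acting through cyclic AMP switches on lipolysis and heat production.

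The 3 defining genes of the cell type were all in the highest range. Fabp4, the fatty acid binding protein of adipocytes, read 15152 and 15220 on the 2 arrays, a mean of 15186 ± 48.1 (SD, n = 2), and ranked 1 of 17925. Adipoq, which encodes the hormone adiponectin, read 11941 and 12129 (mean 12035 ± 133, SD, n = 2) and ranked 27. Ucp1 read 4488 and 4761 (mean 4625 ± 193, SD, n = 2), rank 421, at percentile 97.7. These 2 fat cell markers and this thermogenic marker were thus above the high limit, defined below, on each array. The wider thermogenic list was mixed, with 6 high, 12 middle and 11 background of 29 ranked genes, and Dio2, Elovl3 and Prdm16 were at background. Fabp4 had 4 probe sets, with means of 15186, 13150, 746.3 and 554.8, so a gene's brightest probe set can lie far from its dimmest.

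Signals were divided by 2 limits. High genes were the top 10% of ranked genes, those at 1811 or more, and numbered 1792. Background was set from 68 chemosensory receptor genes (olfactory, vomeronasal and taste receptors), which serve sensory cells: genes at or below the 95th percentile of these, 506.8, were called background and numbered 10532 (58.8%). The remaining 5601 genes (31.2%) were called middle, so that 7393 genes (41.2%) lay above background. The median was 2944 in the high, 848.8 in the middle and 204.8 in the background range, against 391 over all ranked genes.

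The background limit itself is a choice. The chemosensory genes had a median of 143 and 4 of the 68 lay above the limit, the brightest being Vmn1r41, a vomeronasal receptor, at 4465 and 4953, whose other probe set read 188.6. The next of them, Olfr64, stood at 585.9. At the 99th percentile of these genes the limit was 1946, and 1645 genes lay above it. That limit exceeds the high limit of 1811 and was interpolated between Olfr64 and Vmn1r41, so it rests on 1 bright probe set. A limit from markers of other tissues was 1330, and 2690 genes lay above it. Background means that the signal was not told apart from that of these receptors, and not that a gene was silent.

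**Figure D1:**
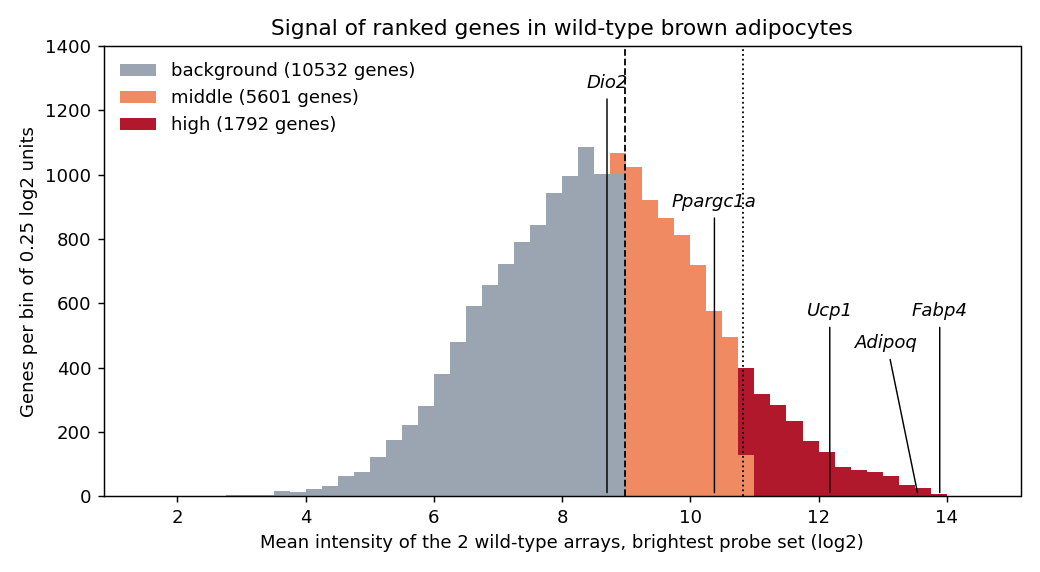
Histogram of the mean intensity of the 17925 ranked genes over the 2 wild-type arrays, on a log2 axis and stacked by range. The dashed line marks the background limit of 506.8 and the dotted line the high limit of 1811; Fabp4, Adipoq and Ucp1 stand in the right tail, Ppargc1a in the middle range and Dio2 below the background limit.

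Genes next to a limit lay closer to it than their values on the 2 arrays lay to each other. Just inside the high range were Gng12 (1813), Mrpl45 (1812), Dennd6b (1812), Kif5b (1811) and Mgrn1 (1811), and just outside it Epha2 (1811), Mrpl11 (1810), Elp2 (1810), Dazap1 (1808) and Cox16 (1808). Kif5b, a kinesin heavy chain, read 1713 and 1910, so it lay on either side of this limit by array. Cmas (506.97), Ints9, Prorsd1, Syt5 and Gtf3c4 (506.87) stood just above the background limit, and Nat8l (506.75), Edem2, Armcx1, Zfand1 and Smarca2 (506.52) just below it. Nat8l, the enzyme that makes N-acetylaspartate, read 558.5 and 455. Members this close to a limit are therefore not separated by their range.

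Promoters were set beside the signals for the 11602 ranked genes with a single entry in the RefSeq promoter table (GRCm38.p6). The 250 bases before the start were searched for TATAAA on the sense strand, between 40 and 20 bases before the start. Both strands of the whole window were searched for the CCAAT box and for the GC box, which is spelled GGGCGG, and none of these motifs contains another. A CpG ratio, the observed over the expected number of CG pairs, was taken over the same bases. The promoters of 6 genes are given, chosen to show a fat cell gene (Adipoq), the thermogenic marker (Ucp1), an adipogenic factor with TATAAA (Cebpa), a ribosomal gene (Rplp2), a gene of cholesterol control (Insig1) and a replication gene (Pcna). Each is 250 bases long, 5′ to 3′ on the gene's own strand, in lower case with the motifs found in capitals. A match on the opposite strand is capitalised where its complement stands, as ATTGG for the first box and as CCGCCC for the second.
Adipoq chr16:23146286-23146535 (+ strand): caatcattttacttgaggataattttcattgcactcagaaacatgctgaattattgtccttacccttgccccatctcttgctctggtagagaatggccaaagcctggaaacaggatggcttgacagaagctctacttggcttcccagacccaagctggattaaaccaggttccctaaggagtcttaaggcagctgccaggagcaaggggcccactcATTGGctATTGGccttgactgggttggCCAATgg
Ucp1 chr8:83290098-83290347 (+ strand): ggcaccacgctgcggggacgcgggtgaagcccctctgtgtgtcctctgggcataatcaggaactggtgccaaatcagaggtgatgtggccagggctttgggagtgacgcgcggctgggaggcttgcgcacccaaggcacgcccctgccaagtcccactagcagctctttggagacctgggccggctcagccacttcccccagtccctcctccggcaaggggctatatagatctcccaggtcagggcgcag
Cebpa chr7:35119043-35119292 (+ strand): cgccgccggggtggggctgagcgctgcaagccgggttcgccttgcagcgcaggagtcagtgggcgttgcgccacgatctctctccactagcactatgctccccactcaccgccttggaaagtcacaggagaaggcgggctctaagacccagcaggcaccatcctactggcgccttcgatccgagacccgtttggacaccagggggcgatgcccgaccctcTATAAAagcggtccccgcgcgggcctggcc
Rplp2 chr7:141447401-141447650 (+ strand): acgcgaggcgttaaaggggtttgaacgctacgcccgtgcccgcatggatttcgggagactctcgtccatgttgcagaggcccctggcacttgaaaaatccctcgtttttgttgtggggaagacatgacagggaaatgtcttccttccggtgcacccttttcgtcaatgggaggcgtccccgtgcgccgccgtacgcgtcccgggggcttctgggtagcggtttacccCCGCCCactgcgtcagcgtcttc
Insig1 chr5:28071162-28071411 (+ strand): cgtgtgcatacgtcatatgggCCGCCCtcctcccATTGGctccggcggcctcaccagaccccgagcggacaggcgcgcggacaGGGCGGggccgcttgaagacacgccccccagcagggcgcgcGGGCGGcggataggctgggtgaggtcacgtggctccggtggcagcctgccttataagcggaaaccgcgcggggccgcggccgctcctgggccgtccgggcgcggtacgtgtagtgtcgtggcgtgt
Pcna chr2:132253181-132253430 (− strand): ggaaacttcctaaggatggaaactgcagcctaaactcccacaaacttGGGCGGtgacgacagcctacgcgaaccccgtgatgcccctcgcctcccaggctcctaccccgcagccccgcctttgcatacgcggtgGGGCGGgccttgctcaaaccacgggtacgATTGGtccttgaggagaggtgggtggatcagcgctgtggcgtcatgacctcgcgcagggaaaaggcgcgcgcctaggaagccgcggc

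These sequences differed in CpG content. The Adipoq promoter held no CG pair and 3 CCAAT boxes within its last bases before the start, while the Insig1 promoter held 34 CG pairs, 1 CCAAT box and 3 GC boxes. The Rplp2 promoter had a CpG ratio of 1.053 with 1 GC box, and that of Pcna 0.86 with 1 CCAAT box and 2 GC boxes. The Ucp1 promoter had 12 CG pairs, a ratio of 0.457 and none of the 3 motifs, which says only that these letters were not in this window. The Cebpa promoter had a ratio of 0.801 and held TATAAA.

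The CpG ratio was higher in the brighter ranges. Its median was 0.785 for 1191 high genes, 0.751 for 3623 middle genes and 0.5 for 6788 background genes, against 0.641 for all ranked genes with a promoter. General adipocyte genes had lower ratios: 13 of them had a promoter entry, with a median ratio of 0.301, and 9 of the 12 in the high range had a ratio under 0.6, against 23.3% of all high genes. Lipolysis genes had a median of 0.482 (5 promoters) and cytosolic ribosomal protein genes one of 0.884 (33 promoters). Whether these medians differ beyond chance was not tested.

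CCAAT boxes were unevenly spread over the lists. They were present in 41.1% of high, 35.4% of middle and 35.6% of background promoters. The share was 36.1% over all ranked genes with a promoter and 34.7% over all 22862 promoters of the table. Each of the 14 cholesterol synthesis promoters held a CCAAT box and a GC box, and 19 of 23 cell cycle promoters (82.6%) held a CCAAT box. Among cytosolic ribosomal protein promoters 9 of 33 did. The GC box was present in 63.5% of high, 61.5% of middle and 42.8% of background promoters, beside 50.7% of all ranked genes and 32.4% of the table. TATAAA in its window was uncommon, at 1.6%, 1.46% and 3.49% in the same order, 2.66% over all ranked genes and 2.27% in the table. A match is a description of letters and not a bound site.

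**Figure D2:**
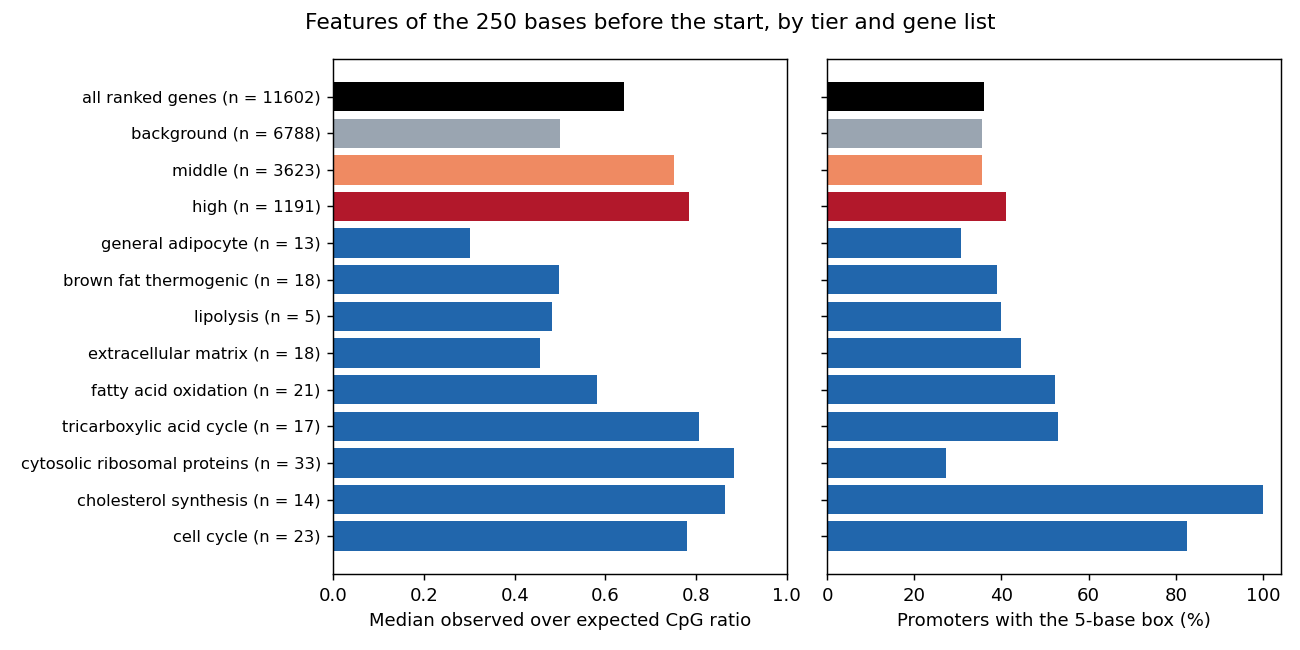
Promoter features of the 250 bases before the start, for all ranked genes, the 3 signal ranges and 9 gene lists, with the number of promoters in parentheses. Left bars give the median observed over expected CpG ratio, from 0.301 for general adipocyte genes to 0.884 for cytosolic ribosomal protein genes; right bars give the percentage of promoters with a CCAAT box on either strand, which reached 100% for cholesterol synthesis.

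The highest signals belonged to lipid carriers, respiratory chain subunits, metallothioneins and translation genes. Below Fabp4 came Mt2 at 14423 and 14882 (mean 14653 ± 324, SD, n = 2) and, at rank 6, Mt1 at 13659 and 14033 (mean 13846 ± 264, SD, n = 2), the metal-binding metallothioneins. Lgals1, a galactoside-binding lectin, Bsg, a partner of lactate carriers, and Actb, the cytoplasmic actin, were also among the first 10. The desaturases Scd2 (13212 and 13071) and Scd1 (12751 and 12831), which put a double bond into saturated fatty acids, ranked 9 and 11. Lpl, the lipase that releases fatty acids from circulating lipoproteins, stood at 12130 and 11849 (rank 28). Dbi, an acyl-CoA binding protein, and Hadh, an enzyme of fatty acid oxidation, completed the lipid genes among the first 30.

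Respiratory genes filled 10 of the first 30 places and 25 of the first 100. Cox7a2 (14425 and 14172, rank 4), Cox4i1, Cox6a1, Cox6b1, Cox6c and Cox5b are subunits of cytochrome c oxidase, Uqcrb is a subunit of the cytochrome bc1 complex, and Atp5b, Atp5o and Atp5a1 belong to the ATP synthase. The glycolytic genes Pgk1, Ldha and Aldoa and the translation genes Eef1a1, Tpt1 and Rps29 were there as well. Fam162a and Chchd10, both coding for mitochondrial proteins, read 12020 and 12641 and 12371 and 12122. The top of the ranking was flat: rank 1 exceeded rank 100 by 1.73-fold, and 59 genes lay above 10000. Saturation at such brightness was not tested. Leaving aside the small families and the interferon response list, 27 of the first 100 genes were in none of the lists. Among them were Mif, a secreted cytokine, Bnip3, a receptor for mitophagy, and B2m, the light chain of class I molecules. Cav1, the coat protein of caveolae, and Cdkn1c, an inhibitor of the cell cycle, were others.

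**Figure D3:**
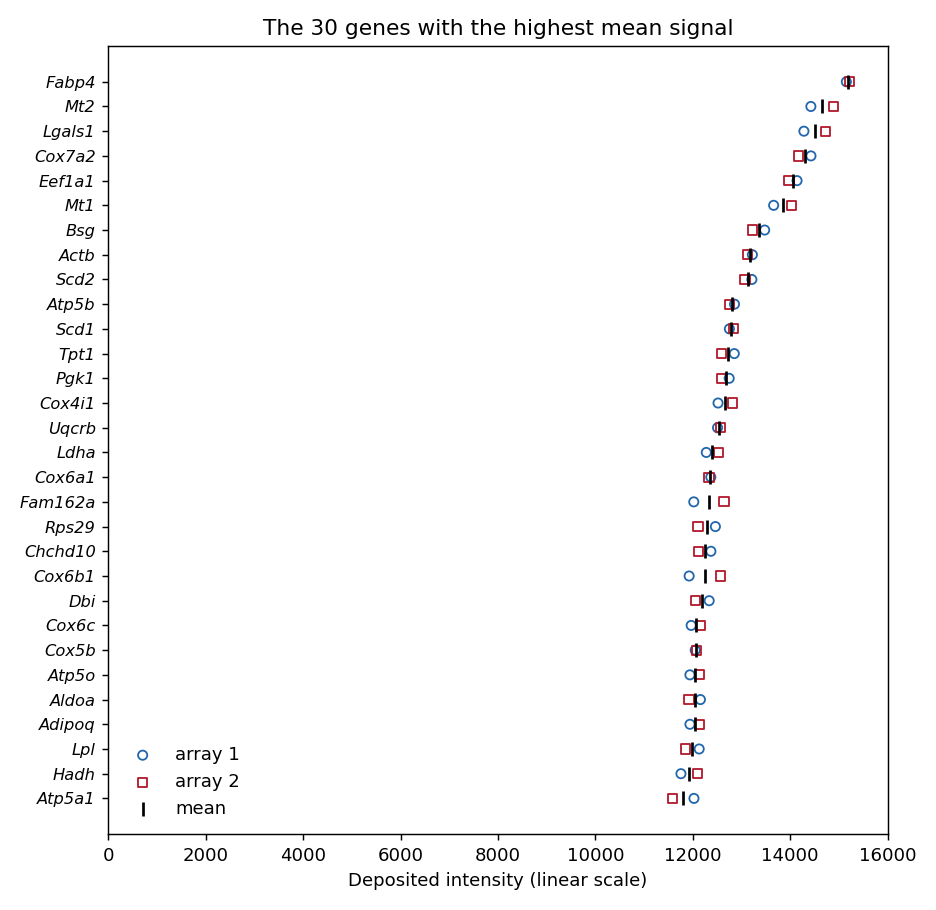
Deposited intensity of the 30 genes with the highest mean over the wild-type arrays, on a linear axis from 0, with array 1 as circles, array 2 as squares and the mean as a bar. All lie between 11585 and 15220 on both arrays, and the arrays differ little beside the distance to the median gene at 391.

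Mitochondrial energy genes lay mostly in the high range. Of 82 ranked genes of oxidative phosphorylation, 73 were high, 5 middle and 4 background, with a median of 7259, against 10% of all ranked genes in the high range and an overall median of 391. Complex I, which takes electrons from NADH, had 33 of 35 genes in the high range, with Ndufb9 at 11410 and Ndufa1 at 10236. All 4 genes of complex II were high, from Sdhd at 6976 to Sdhb at 9599. All 10 genes of the complex III list were high, including the electron carrier cytochrome c (Cycs, 11454). Cytochrome c oxidase had 11 of 17 high, and the ATP synthase list 15 of 16, with Atp5g1, one of the genes for subunit c, in the middle range at 1629. The only ranked gene carried by mitochondrial DNA, ND5, read 8074 and 7763.

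The tricarboxylic acid cycle list, which includes pyruvate dehydrogenase, was high without exception: 21 of 21 genes, with a median of 6976, from Suclg2 at 2353 to Pdhb at 10112. Citrate synthase (Cs) stood at 8910. Fatty acid oxidation followed with 18 of 24 high and a median of 3898, beside 10% and 391 over all ranked genes. Hadh (11926), Hadhb (9697), the electron transfer flavoprotein Etfa (8737) and the acyl-CoA dehydrogenases Acadl (8650) and Acadm (8562) led it, Cpt1a was middle at 631.8, and the peroxisomal enzyme Ehhadh, at 503, fell just under the background limit. Mitochondrial ribosomal protein genes were all above background, with 41 high and 35 middle of 76 and a median of 1844. Tfam, which packages and transcribes mitochondrial DNA, was just in the high range at 1823.

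General adipocyte genes were high as a group: 24 of 27 ranked genes, with a median of 4331, beside 10% and 391 over all ranked genes. Besides the markers, Car3 (11267), a carbonic anhydrase abundant in fat, and Cd36 (7462), a fatty acid translocase, stood well inside the range. So did Pnpla2 (7051), the first lipase of triglyceride breakdown, whose other probe set read 226.4, below the background limit. Pparg read 4029 and 4169 (mean 4099 ± 98.98, SD, n = 2), and Cebpa 6351 and 6076 (mean 6214 ± 194, SD, n = 2). Aqp7, a glycerol channel, and Klf15 were in the middle range at 938.6 and 649.7. Cebpd, an early adipogenic factor, was the single member at background, at 313.8 and 322.3. Plin1, Cfd and Acsl1 were not ranked here.

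Genes of fat synthesis and breakdown were mostly high, beside 10% of all ranked genes. Of 23 fatty acid and triglyceride synthesis genes 16 were high, with Srebf1 (7983), the regulator of lipid synthesis, Gpd1 (7965), which makes glycerol 3-phosphate, Me1 (7221), a source of NADPH, Dgat2 (6688), Fasn (5132) and Acly (4756). Mlxipl, the carbohydrate-responsive factor, was middle at 741.1, and Mogat1, Elovl6, Lpin3 and Lpin2 were background. The lipolysis list had 8 of 12 high, including the lipases Lipe (3952) and Mgll (3935) and G0s2 (8134), an inhibitor of Pnpla2. Abhd5, its activator, was middle at 1355. Cholesterol synthesis genes were mostly middle, with 6 high, 10 middle and 3 background of 19 and a median of 1346; Insig1 (3392), Fdps (3359) and Hmgcs1 (3292) led it.

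Thermogenic genes ran through all 3 ranges. Of 29 ranked, 6 were high, 12 middle and 11 background, with a median of 716.2. Over all ranked genes 10% were high, 31.2% middle and 58.8% background, with a median of 391. Cox7a1, the oxidase subunit of heart and brown fat, read 7478 and 7539 (mean 7508 ± 43.3, SD, n = 2), and Cidea, a lipid droplet protein, 7617 and 7172 (mean 7394 ± 315, SD, n = 2). The other high genes were Ucp1, Ppargc1b (2850 and 3162), Ebf2 (2557 and 2345) and Zic1 (2289 and 2341). Another probe set of Zic1 had a mean of 402.5, below the background limit. In the middle range were the potassium channel Kcnk3 (1699), the deacetylase Sirt3 (1691), Cox8b (1388), Ppara (1372), Ppargc1a (1329), the secreted factor Nrg4 (668.9) and the proton channel Otop1 (579.6).

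Several genes known as marks of active brown fat gave background signal. Dio2, which makes active thyroid hormone, read 442.1 and 389.8, and none of its 3 probe sets rose above the limit. Elovl3, a fatty acid elongase, read 239.6 and 209.5, and Prdm16, a regulator of brown fat identity, 424.9 and 420.3. Fgf21 (78.3) and Bmp8b (94.8), both secreted, and Lhx8 (65.4) were lower still. Prdm16 and Dio2 lay near the median of all genes, at percentiles 52.5 and 52. With the limit at the 90th percentile of the chemosensory genes, 338.8, both would be above background, and 23 of the 29 thermogenic genes instead of 18. Cpt1b, Gk, Adrb3 and Gmpr were not ranked here.

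Genes marking other kinds of fat were found in every range. Of 11 ranked white fat selective genes 7 were background, beside 58.8% of all ranked genes, and 2 were high, beside 10% of all. The high ones were Psat1, an enzyme of serine synthesis (3250), and Retn, the hormone resistin (2907 and 2642). Hoxc8 (1153 and 1234) and Lep, the hormone leptin (813.1 and 892.4), were middle. Of 6 beige fat selective genes 5 were background, and Tnfrsf9 was middle at 671.7. The signals of Retn and Lep stood above background on both arrays alongside Ucp1.

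**Figure D4:**
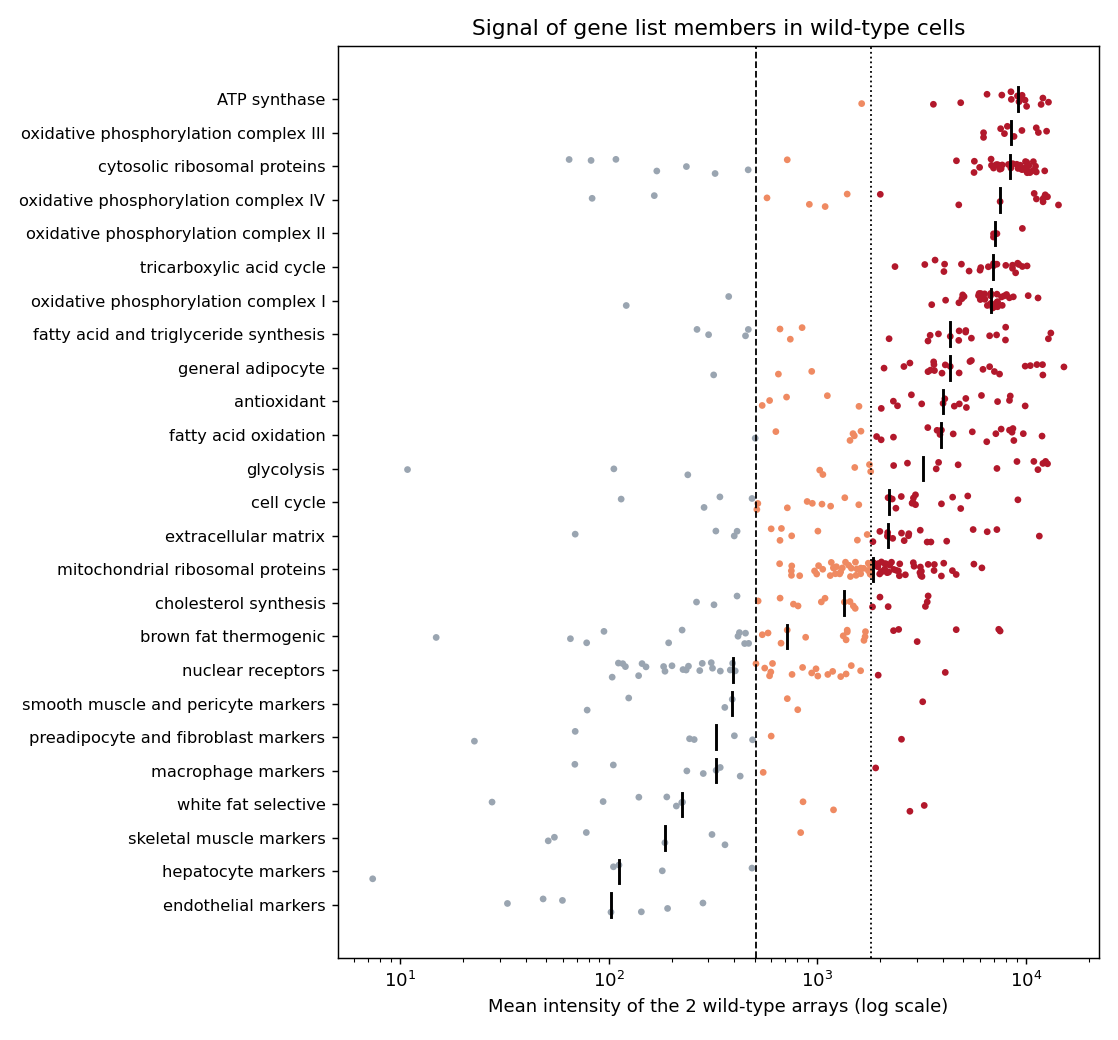
Mean intensity over the 2 wild-type arrays of each ranked member of 25 gene lists, on a log axis; each point is a gene, coloured by range, and the black bar is the list's median. The medians of the respiratory chain, ATP synthase, tricarboxylic acid cycle, fatty acid oxidation and glycolysis lists lie right of the dotted high limit of 1811. All members of complexes II and III and of the tricarboxylic acid cycle list lie right of it, and 1 ATP synthase gene lies left. Complexes I and IV, fatty acid oxidation and glycolysis each have more than 1 member left of it. Thermogenic genes and nuclear receptors spread across both limits, and endothelial and hepatocyte markers lie left of the dashed background limit of 506.8.

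Genes of glucose metabolism were mostly high, beside 10% of all ranked genes. The glycolysis list had 12 high, 5 middle and 3 background of 20, with Pgk1 (12671), Ldha (12402), Aldoa (12039), Pkm (11398) and Tpi1 (10896) at its head. Glucose carriers were divided: the insulin-responsive Slc2a4 (3638) and the widespread Slc2a1 (1846) were high, and Slc2a3 (294.2) and Slc2a2 (74.4) background. Hk1 was high at 2318, Hk2 (1775) and Hk3 (1062) middle. Pdk1, which restrains pyruvate dehydrogenase, was high at 4273, and Pdk4, Pdk2 and Pdk3 were middle at 1491, 1014 and 945.5. Pklr, the liver and red cell pyruvate kinase, read 3484 and 3934 on 1 probe set, while its other probe sets stood at 155.1 and 95.3, so its place in the high range rests on a single probe set.

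Gene families showed which relatives carried signal. Fatty acid binding proteins comprised 2 high members, Fabp4 and Fabp5 (10478), and 5 background members between 104.9 and 298.4. The 4 ranked perilipins, which coat lipid droplets, were above background (Plin1 was not ranked here), with Plin2 (7127) and Plin4 (2450) high and Plin3 (1405) and Plin5 (1389) middle. Ucp1 was high and Ucp3 background at 223, and Ucp2 was not ranked here. The adenine nucleotide carriers Slc25a5 (8766) and Slc25a4 (8580) were high and the testis form Slc25a31 background at 49.1. Elovl5 was high at 5141, Elovl1 (1391) and Elovl7 (801.5) middle, and the other 4 elongases background. Lpin1 was high at 3387 and both other lipins background.

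Tissue-specific forms of 5 cytochrome c oxidase subunits gave signal above the background limit, as did the common ones. Each of 5 common forms was high: Cox7a2 (14299), Cox4i1 (12664), Cox6a1 (12351), Cox6b1 (12245) and Cox8a (11207). Their partners read 7508 for Cox7a1, 573 for Cox4i2, 2001 for Cox6a2, 1089 for Cox6b2 and 1388 for Cox8b, all above background. Cox4i2 and Cox6b2 were below the limit of 1330 from markers of other tissues. Cox6a2 had another probe set at 130.9. Because each form is read by its own probes, the pairs are not ordered by amount here.

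Nuclear receptors, the transcription factors that bind hormones and lipids, were spread much as all genes were. Of 39 ranked, 2 were high, 16 middle and 21 background, with a median of 392.2 beside 391 over all ranked genes. Pparg was one of the 2. The other, Esrrb, read 1951 and 1959 on 1 probe set and stood at 142.9 and 95.5 on its others. Ppara (1372) and Ppard (597.6), Rxrb (1121), Rxra (755.4) and Rxrg (558.6), and Esrra (938.2), which works with PGC-1 coactivators on mitochondrial genes, were middle. The glucocorticoid receptor Nr3c1 (1610) and the thyroid hormone receptor Thra (1453) were middle as well, and Thrb (200.8) and Esrrg (183) background. With the background limit at the 99th percentile, which rests on Vmn1r41, 2 receptors instead of 18 would lie above it.

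Among 31 adipogenic and brown fat regulators 10 were high, 8 middle and 13 background, beside 10% of all ranked genes in the high range. Srebf1, Cebpa and Cebpb (5381) led the list, followed by Pparg, Klf9 (3239), Ppargc1b, Ebf2, Ebf1 (2078), Gabpa (1886) and Tfam. The PGC-1 family had 1 member in each range: Ppargc1b high at 3006, Ppargc1a middle at 1329 and Pprc1 background at 350.3. Each of the 5 Ppargc1a probe sets lay above background, from 534.5 to 1329. Irf4 (377.4), Zfp423 (443.4), Nrf1 (362.9) and Foxc2 (147.7) were background.

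Of 13 ranked genes of adrenergic receptors and cyclic AMP signalling 6 were high, 4 middle and 3 background. The shares over all ranked genes were 10% high, 31.2% middle and 58.8% background. Gnas, the stimulatory G protein subunit, stood at 8678, and the kinase subunits Prkaca (5528), Prkar2b (4956) and Prkar1a (4186), the phosphodiesterase Pde3b (5527) and the cyclase Adcy3 (3442) were high. Mapk14 (1609), a stress-activated kinase, Atf2 (1574), Adcy6 (1298) and Creb1 (557.1), the factor phosphorylated by protein kinase A, were middle, and the phosphodiesterase Pde4d was background at 461.7. None of the 3 beta receptors was ranked here, and the 2 ranked alpha receptors, Adra2c (250.2) and Adra1b (89.4), were background.

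Secreted factors lay across the ranges, with 7 high, 9 middle and 6 background of 22. All ranked genes were 10% high, 31.2% middle and 58.8% background. Next to Adipoq, Rbp4 (11702), the retinol carrier, Nampt (5974), Pltp (4587), a phospholipid transfer protein, and Angptl4 (4442), an inhibitor of Lpl, were high. Vegfb was high at 2037 and Vegfa middle at 1492. The inflammatory factors Il6 (119.1) and Tnf (359.3) were background, and Ccl2 was middle at 717.6. Extracellular matrix genes had 18 of 29 high, led by Sparc (11573), Bgn (7246) and the basement membrane collagen Col4a1 (6511), and Lum (69) and Mmp2 (325.9) at background.

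Genes for translation and protein turnover were high in most cases, beside 10% of all ranked genes. Cytosolic ribosomal proteins had 36 of 44 high and 19 in the first 100, and translation factors 15 of 17, led by Eef1a1 (14058). The proteasome had 25 of 39 high. Of 21 antioxidant genes 16 were high and none background, with Mgst1 (9900), Gpx4 (8399), Txn1 (8325), Sod1 (7301) and the mitochondrial Sod2 (6111). Chaperone and cytoskeleton genes were high for 17 of 18.

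Cell cycle genes were mostly above background on day 7. Of 28 cell cycle genes 15 were high, 9 middle and 4 background, with a median of 2198. All ranked genes were 10% high, 31.2% middle and 58.8% background, with a median of 391. Pcna, the sliding clamp of DNA polymerase, read 9117 and 9153 (mean 9135 ± 25.5, SD, n = 2), and the helicase subunit Mcm6 (5253), the ribonucleotide reductase subunit Rrm2 (4861) and the mitotic kinase Cdk1 (3929) were high. Mki67, a marker of cycling cells, was middle at 1490 and 1666. Ccnd1 (286.1), Kif23 (485.7), Cenpe (340.7) and Tyms (114.6) were background.

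Markers of other cell types were for the greater part at background. Of 53 ranked markers of muscle, vessel, blood, nerve, liver and epithelial cells 42 were background, 9 middle and 2 high, with a median of 236.6. Over all ranked genes 58.8% were background. Smooth muscle and pericyte markers were background for 4 of 7, epithelial markers for 2 of 4 and erythroid markers for 1 of 2, not above that share. Lymphocyte markers and nerve markers were background for 5 of 6 each. All 7 endothelial markers were background, from Pecam1 at 32.7 to Kdr at 282.5, as were all 5 hepatocyte markers, with albumin (Alb) at 111.8. Of 7 skeletal muscle markers 6 were background, among them Myod1 (312.2) and Ckm (185.7), and Acta1 was middle at 830.9. Macrophage markers were background for 7 of 9, including Cd68 at 105.1 and Itgam at 68.7. Adgre1 was middle at 549.4, and Csf1r was high at 1875 and 1927, with its other probe sets at 696 and 473.4.

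Probe sets of the remaining markers above background agreed in some cases and not in others. Acta2, the smooth muscle actin, stood at 3195 on 1 probe set and at 31.3 and 18.3 on its others. Epcam read 1495 against 100 on its other probe set, and Krt14 1221 against 84.8 and 54.1. Cspg4, a pericyte proteoglycan, was above background on both of its probe sets, at 804.5 and 664.4. Acta1, Tagln (716.9), Hba-a1 (590) and Adgre1 had 1 probe set each. Cd8a, a lymphocyte marker, stood at 512.2 on 1 of its 5 probe sets and at 467.1 on the next. Sox10, a Schwann cell factor, was above background on the 2 probe sets with a value on both arrays, at 665.4 and 610.3, and its remaining probe set read 48.9 on array 1 with no number on array 2. Of 8 preadipocyte and fibroblast markers 6 were background, beside 58.8% of all ranked genes, with Pdgfra at 256.5 and Cd34 at 22.7. Col1a1 was high at 2528 and Dcn middle at 600.1. Fewer cells of a type and less RNA per cell cannot be told apart in RNA of a whole culture.

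Probe sets of a gene often lay in different ranges. Of 1245 high genes with 2 or more probe sets, 275 (22.1%) had their second brightest at background, and of 3569 middle genes 2232 (62.5%) did. The brightest over the dimmest probe set had a median ratio of 6.79 in high and 4.47 in middle genes. Some genes that every cell uses also had background signal: Rpl12 (82.2), Rpl14, Rps16, Rps25, Rps27 and Rps6 among cytosolic ribosomal proteins, and Ndufb1, Ndufb4 and Cox7c (83.2) among respiratory genes. The tissue-restricted forms Rpl3l, of muscle, and Cox7b2, of testis, were background as well. For 6 of the 7 ribosomal and 1 of the 4 respiratory genes, a probe set annotated to several genes, and so not used, lay in the high range. For those 7 genes a background call on the probe set used does not describe their level.

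Long noncoding RNAs were rare among the bright genes. They made up 0.614% of high genes (11), 2.59% of middle genes (145) and 11.8% of background genes (1246). Gm12359 (5664) was the brightest, and Norad (2621), which binds Pumilio proteins, and Snhg10 (2533), a host of small nucleolar RNA, were also high. Most ranked long noncoding RNAs lay in the background range.

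The arrays agreed closely where signal was high. Over genes, which are not independent replicates, the log2 values of the arrays correlated with r = 0.956 for all ranked genes and 0.991 for those above background. The median absolute log2 difference was 0.057 in high, 0.0876 in middle and 0.206 in background genes. A difference over 1.5-fold was seen in 1 high gene (0.0558%), 11 middle genes (0.196%) and 1692 background genes (16.1%). The spread between arrays was thus larger at the low end of the ranking, where the order of genes is least certain.

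The few genes above background that differed between the arrays included a set of interferon response genes. Rtp4 read 1839 on array 1 and 773.6 on array 2 (2.38-fold), and Gbp3 1001 and 662.7 (1.51-fold). Iigp1 read 758.8 and 338.6, Ifit3 822.2 and 505.6, and the matrix proteoglycan Dcn 724.8 and 475.3, so that these were above the background limit on array 1 and below it on array 2. These were the 5 genes over 1.5-fold higher on array 1, and 4 of them are interferon response genes. On array 2, 7 genes were over 1.5-fold higher, with Crip3 (454.6 and 1299), Gstp3 (469.8 and 849.2), Irf2bp1 (1056 and 1719), Tubb2a (806.7 and 1295) and Prex2 (555.1 and 859) the furthest. Crip3 and Gstp3 were below the background limit on array 1.

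An interferon response list was then made, after these values had been seen. Of its 17 genes above background 16 (94.1%) were higher on array 1, against 39.8% of all 7393 such genes, and their median log2 difference, array 2 minus array 1, was -0.37, against 0.03. Tap1, a peptide transporter, was the exception, at 1026 and 1125. The 17 include Rtp4, Iigp1, Ifit3 and Gbp3, whose differences had prompted the list. Iigp1, Ifit3, Igtp, Samd9l and Gbp2 were below the background limit on array 2, so their means passed it only through array 1. The share was thus partly fixed by how the list and the limit were set, and no conclusion is drawn from it. The difference lies between 2 arrays with no replicate behind it, and it was not tested. Fabp4, Adipoq and Ucp1 did not share this direction, each being slightly higher on array 2.

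**Figure D5:**
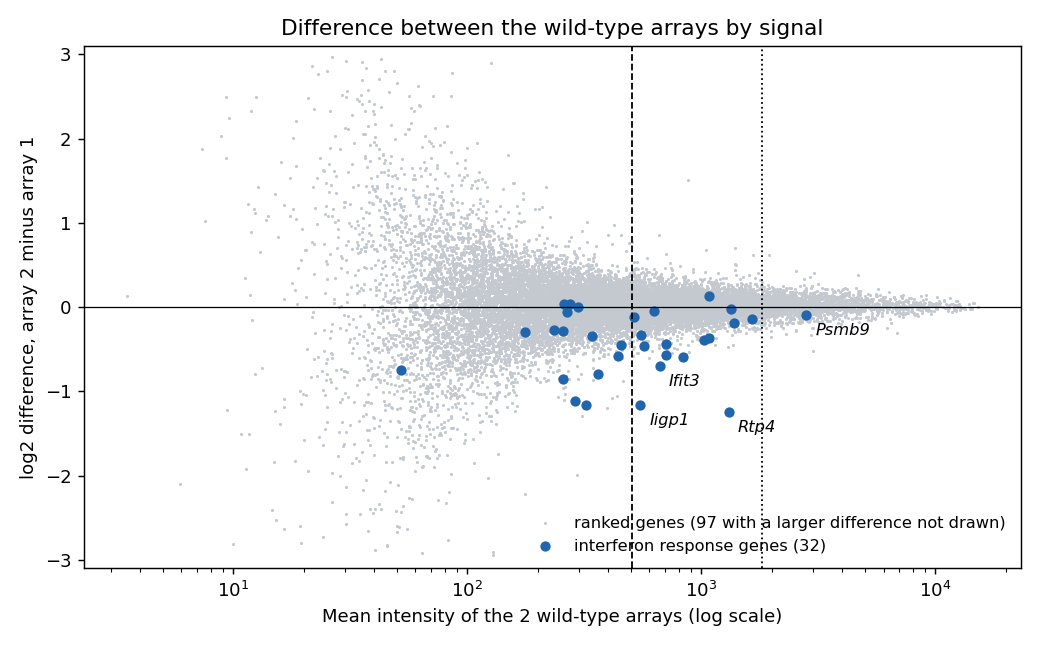
Log2 difference between the wild-type arrays, array 2 minus array 1, against the mean intensity on a log axis; grey points are ranked genes and blue points the 32 interferon response genes, with the background limit dashed and the high limit dotted. The grey cloud narrows as signal rises, and 29 of the 32 blue points lie below 0.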

How the data were processed

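Biotin-labelled RNA of the cells was measured on single-colour oligonucleotide arrays, per the labels' protocols. The authors deposited 1 linear intensity per probe set and array, for 45037 probe sets. For the summarising software, the scaling and any background correction, a description is not given in the sources used here. Medians of the wild-type arrays were 236.7 and 237.7, so no further scaling was applied. The number of arrays, 2, limits the precision. Cells holding the word null (900 and 841 on the wild-type arrays) or nothing (17 and 26) were kept as missing, and 268 of 18193 genes without a value on both arrays were left out.

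Probe sets were named from the platform annotation, with symbols updated by gene identifier in the RefSeq gene table of GRCm38.p6: 34945 had 1 symbol (34741 matched), 932 had several and 9160 had none here, and only those with 1 symbol were used. Each gene took its probe set with the highest wild-type mean. Ranges, list counts, medians, array differences and promoter motifs were computed in Python 3.11.15 with pandas 2.3.3 and NumPy 2.4.6, and the procedure was tested on simulated data. No test was run, as there was 1 group.

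Named genes were the 3 markers, the first 30 genes, up to 8 leading members of each list and members at background that a reader would look for, all members of small families, 5 genes on each side of each limit, and the 5 with the largest differences between arrays in each direction. Mif, Bnip3, B2m, Cav1, Cdkn1c, ND5, Tap1, Olfr64, Vmn1r41 the long noncoding RNAs and some further list members fall outside that rule and were chosen after their values were seen. The members and lists were chosen with earlier results of these data known, and the interferon response list after its values were seen. Alternatives changed the probe set rule, both limits, the arrays used and the normalization.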

Additional observations from a re-analysis of the deposited data

How the results depend on the processing

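The number of genes above background, 7393, rests on the limit. It was 1645 with the limit at the 99th percentile of the chemosensory genes, which rests on Vmn1r41, and 2690 with a limit from other-tissue markers. Among the 9174 genes that have a single probe set it was 3356, or 36.6% against 41.2% of all ranked genes. Fewer genes were ranked there and the limit was 371.6, so this count does not reflect the limit alone. The number of high genes, 1792, became 917 among genes with a single probe set and 896 with a high range of the top 5%. With 1 array left out in turn, the number above background lay between 7347 and 7437 and the number of high genes was 1803. As the high range is a fixed share of the genes ranked, its size shows no stability. Of the 1792 high genes, 1398 were also high with the median over probe sets, 1222 without suffixed probe sets, 991 with the dimmest probe set, and 1769 and 1760 without array 1 and array 2. Quantile normalization gave 7392 genes above background and the mean of log2 values 7386. Adipoq and Ucp1 were high under each of the alternatives. Each has 1 probe set, so changes to the probe set rule could not alter their values. Changes to the background limit alone could not move a gene out of the high range. Fabp4 was middle with only probe sets without a suffix for shared or variant transcripts, and with the dimmest probe set. Under each other alternative that ranked it, Fabp4 was high. Of the counts of list members above background under alternatives, 461 stayed within 1.5 times the reported count and 94 did not. Of the counts in the high range 497 did and 58 did not. Changing only the background limit could move no count in the high range, and changing only the high range no count above background. Using only genes with 1 probe set drops list members, and gave 31 of the 94 and 25 of the 58. Limits without Vmn1r41 (8165 genes above background) and the dimmest probe set (5004) were chosen after seeing the data. No paired analysis was possible because only 1 group was described and no test was run.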
